A study of Mus musculus with 61 samples.

Results

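The 9 genes described here belong to the calcium machinery of the muscle fibre and were followed through 22 groups of mice. They are the calcium pumps Atp2a1 and Atp2a2, the small pump inhibitors Sln, Mrln and Pln, the calcium store proteins Casq1 and Casq2, and the calcium release pair Ryr1 and Cacna1s. The genes were taken by symbol, and all 9 were present among the 55011 genes of the count table.

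A muscle fibre contracts when calcium leaves the sarcoplasmic reticulum, the membrane store that surrounds the myofibrils, and relaxes when calcium is pumped back. The voltage sensor Cacna1s in the surface membrane opens the release channel Ryr1, calsequestrins (Casq1 and Casq2) hold calcium inside the store, and SERCA pumps (Atp2a1 and Atp2a2) refill it. Sarcolipin (Sln), myoregulin (Mrln) and phospholamban (Pln) are membrane micropeptides that bind the pumps and lower their activity. Fast fibres use mainly Atp2a1 and Casq1, while Atp2a2 and Casq2 are found in slow fibres and heart.

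RNA of whole muscle was sequenced in bulk, in 61 libraries made from 2 ng of RNA each. The study asked how Foxp3-expressing regulatory T cells bear on the muscle's response to exercise. Those cells were removed with diphtheria toxin (DT) in Foxp3-IRES-GFP.hDTR mice, which express the toxin's receptor from the Foxp3 locus. Such mice are written here as DTR+, and toxin-treated mice without the receptor (Foxp3DTR-) as DTR-.

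Wild-type C57BL/6J mice were sedentary or were sampled 1, 2 and 7 days after acute exercise. Quadriceps and tibialis anterior were both taken, which gave 8 groups of 3 libraries. In the acute DTR experiment all mice received DT and quadriceps was taken. Its DTR+ groups were 2 sedentary mice, 3 mice at day 1 and 2 mice at day 7, and its DTR- groups were 3, 3 and 2 mice at the same points. In the training experiment all mice received DT, and quadriceps came from 3 trained and 3 sedentary mice of each genotype, with training lasting 2 weeks. A further 6 trained DTR+ mice, also given DT, received an antibody neutralising interferon-gamma (3 mice) or control IgG (3 mice) for 1 week during training. Sedentary C57BL/6JN mice of 24 months received the neutralising antibody (2 mice) or IgG (2 mice), and their labels name no muscle. The sources used here do not give the ages of the other mice or the amount and timing of DT.

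Libraries held 3359683 to 14445336 counts. A count of 0 therefore allows a level of up to 0.208 to 0.893 CPM (3 counts, counting error only), where CPM is a count scaled to its library's total. Foxp3 had 2 counts in the 7 DTR+ libraries of the acute experiment together, against 25 counts in its 8 DTR- libraries. It had 2 counts in the 6 DTR+ training libraries and 4 counts in the 6 DTR- ones, so the genotype could not be checked from Foxp3 at this depth. Skeletal fibre markers summed to 145317 to 205386 CPM in all 61 libraries, while cardiac markers summed to 0.79 to 14.6 CPM.

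Some libraries stood apart, and the 4 DTR+ libraries of rest and day 7 in the acute experiment enter large differences given below. Mitochondrially encoded genes took 21.4 to 23.5% of the counts in the DTR+ sedentary libraries of the acute experiment, against 7.89 to 11.996% in the DTR- sedentary ones. At day 7 the shares were 20.01 to 21.8% in DTR+ and 8.70 to 8.92% in DTR-, and at day 1 they were 5.53 to 6.31% in DTR+ and 5.44 to 6.56% in DTR-. Long transcripts were under-represented in the same libraries: the slope of a library's log2 deviation on log2 exonic length was -0.262 to -0.250 in sedentary DTR+, against -0.196 to -0.139 in sedentary DTR- mice. In the aged experiment the antibody-treated mice number 1 and number 3 had slopes of -0.34 and 0.38, and IgG mouse number 3 had -0.28. In the training experiment DTR+ sedentary mouse number 2 had a slope of -0.12. DTR+ sedentary mouse number 3 had 0.19 there, with the lowest total of the series (3359683 counts). The part of these properties in the levels of the 9 genes was not tested beyond the alternatives given beside each result.

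Promoter sequence was read for 7 of the 9 genes (RefSeq, GRCm38.p6, the 250 bases before the annotated start). Those of Mrln and Casq2 are shown because these genes carry the calls of the exercise and training experiments that did not depend on the libraries standing apart. Capitals mark matches to CANNTG, the core that myogenic factors of the MyoD family bind, and to the MEF2 motif, both searched on both strands. The Mrln window lies at chr10:70204414-70204663 on the plus strand and the Casq2 window at chr3:102086165-102086414 on the plus strand, both read 5′ to 3′.
Mrln: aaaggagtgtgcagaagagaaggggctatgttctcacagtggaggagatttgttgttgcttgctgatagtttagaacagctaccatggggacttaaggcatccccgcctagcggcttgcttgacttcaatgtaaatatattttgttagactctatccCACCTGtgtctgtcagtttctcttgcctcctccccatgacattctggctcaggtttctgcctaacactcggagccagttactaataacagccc
Casq2: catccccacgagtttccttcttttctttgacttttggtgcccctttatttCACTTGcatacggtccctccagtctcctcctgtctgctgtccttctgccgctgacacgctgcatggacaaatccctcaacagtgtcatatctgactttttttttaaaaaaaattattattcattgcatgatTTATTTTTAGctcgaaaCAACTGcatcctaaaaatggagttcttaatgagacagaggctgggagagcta

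The Mrln window held 1 CANNTG, starting 93 bases before the start, and the Casq2 window held 2, at 200 and 52 bases, with a MEF2 match at 69 bases. CANNTG also occurred 55 bases before the start of Atp2a1, 59 before Pln, 195 and 67 before Casq1, and 160 and 123 before Cacna1s. No CANNTG was found in the Ryr1 window. Of 32851 promoter windows of this length, 66.2% held CANNTG and 2.92% held the MEF2 match, so a CANNTG match sets none of these genes apart.

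The genes differed in level by several orders of magnitude. Compared per kilobase of annotated exon, sedentary wild-type quadriceps had 17431 CPM per kilobase of Atp2a1, the fast-fibre pump, and 2250 of Casq1, the fast-fibre store protein. Ryr1 and Cacna1s followed at 101 and 100.2 CPM per kilobase, and Mrln at 50.6. Atp2a2 and Casq2 were lower still, at 11.4 and 10.7 CPM per kilobase. Sln had 3.47 and Pln 0.25 CPM per kilobase, so in this muscle Mrln was the most abundant of the 3 inhibitor transcripts.

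**Figure D1:**
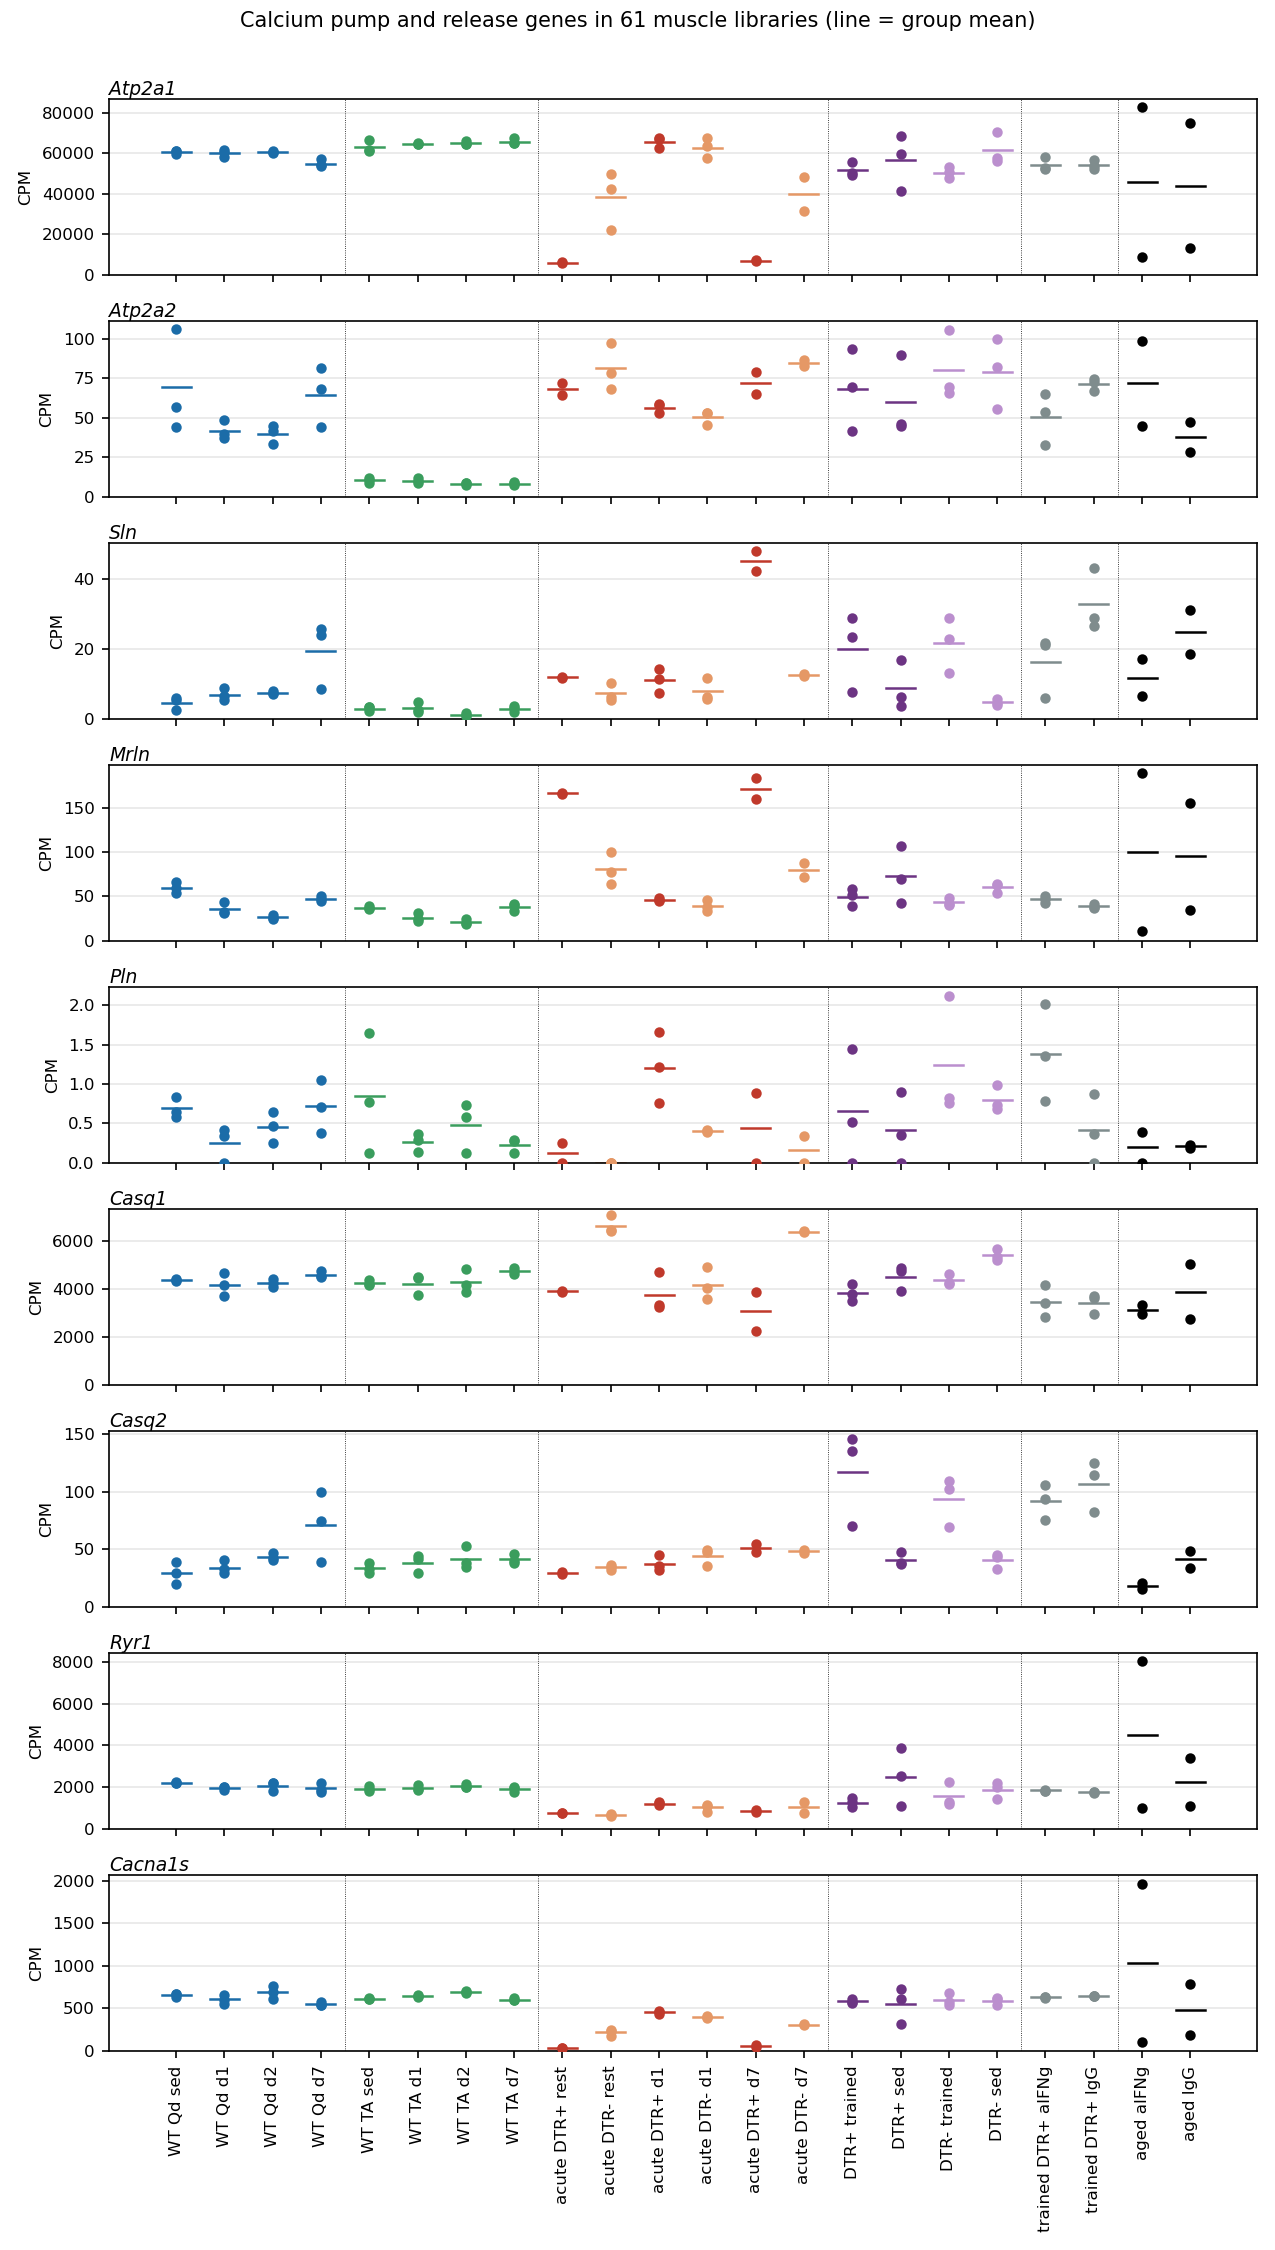
Level of each of the 9 genes in CPM (vertical axes, linear, starting at 0) in every library, by group (horizontal axis); points are libraries and lines are group means. Atp2a1 and Cacna1s are low in the DTR+ groups of the acute experiment at rest and day 7, where Mrln is high, and Casq2 is high in the trained groups.

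Spread between libraries of a group also differed by gene. The median coefficient of variation over the groups was 4.26% for Cacna1s, 5.35% for Atp2a1, 7.26% for Ryr1 and 9.25% for Casq1. It was 11.2% for Mrln, 16.8% for Casq2, 16.9% for Atp2a2, 35.5% for Sln and 62.1% for Pln, the 2 genes with the lowest counts. When the 22 groups were put in order of their mean CPM, most neighbours overlapped. Of 21 neighbouring pairs, the libraries did not overlap in 6 for Cacna1s, 3 for Ryr1, 2 each for Atp2a1, Sln and Casq1, 1 each for Atp2a2, Mrln and Pln, and 0 for Casq2. The Pln pair had at most 6 counts in a library. The same counts over all genes are not given, so these say nothing particular to the 9 genes.

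The extremes of those orders lay in few places. Atp2a1 was highest in DTR+ mice at day 1 of the acute experiment (65852 ± 2599 CPM, SD, n = 3) and lowest in its DTR+ sedentary mice (5849 ± 469 CPM, SD, n = 2). Mrln was highest in DTR+ mice at day 7 (172 ± 16.9 CPM, SD, n = 2) and lowest in tibialis anterior at day 2 (20.9 ± 3.27 CPM, SD, n = 3). Casq2 was highest in trained DTR+ mice (117 ± 41.2 CPM, SD, n = 3) and lowest in aged mice given the neutralising antibody (18.02 ± 4.04 CPM, SD, n = 2). The store protein Casq1 varied least between groups, with 2.17-fold between its highest and lowest group means.

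Pln, the inhibitor best known from heart, was at the edge of detection. It had 0 counts in 11 of the 61 libraries, at most 16 counts and at most 2.13 CPM in any library. Its gene lies within Cep85l on the opposite strand, and the sources used here do not say whether counting used strand, so reads of the 2 genes cannot be told apart. Pln passed the filter on low counts in the acute experiment only, where the 3 DTR- sedentary libraries had 0 counts each, and it was called in no comparison. Its group means there were 0 to 1.21 CPM. Between genotypes at day 1 Pln was 1.21 CPM in DTR+ mice, against 0.406 CPM in DTR- mice (log2 fold change 1.55 ± 1.14, edgeR adjusted p = 1), and no fold is given elsewhere, since at least 1 group mean in each of the other comparisons was below the level that 3 counts allow. Atp2a1 likewise overlaps Rabep2 on the opposite strand, but Rabep2 had a median of 44.7 CPM against 58172 CPM for Atp2a1.

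In wild-type quadriceps, the inhibitor Mrln fell after exercise and the inhibitor Sln rose a week later, while the fast-fibre pump and store protein and the release pair gave no call. Mrln had 53.5, 59.3 and 66.4 CPM in sedentary mice, 31.4, 44.1 and 32.7 CPM at day 1, 29.4, 25.9 and 24.7 CPM at day 2, and 50.2, 46.8 and 44.8 CPM at day 7. All libraries of days 1, 2 and 7 lay below the lowest sedentary library, and the day 2 libraries were the lowest. Against sedentary mice, the log2 fold change of Mrln was -0.71 ± 0.16 at day 1 (SE; edgeR quasi-likelihood test, adjusted p = 0.0502) and -1.14 ± 0.16 at day 2 (adjusted p = 0.00219). At day 7 it was -0.31. The day 2 call held in all 19 alternatives, with values of -1.23 to -1.05, and the day 1 value passed with 7 of them (adjusted p of 0.00465 with DESeq2).

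Sln had 5.46, 5.94 and 2.34 CPM in sedentary quadriceps, 6.54, 5.22 and 8.90 CPM at day 1, 7.43, 7.86 and 7.12 CPM at day 2, and 8.39, 25.7 and 23.9 CPM at day 7. The day 7 libraries all lay above the sedentary ones, and 1 of them, at 8.39 CPM, lay within the day 1 range. The day 7 log2 fold change was 2.10 ± 0.40 (SE; edgeR adjusted p = 0.035). That call rests on few counts and few mice: it was lost with 5 of the 12 libraries left out in turn, namely day 7 mice number 9 and 10 and sedentary mice number 5, 6 and 7, with adjusted p up to 0.24 and values of 1.78 to 2.32.

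Casq2 had 19.6, 39.0 and 29.2 CPM in sedentary quadriceps and 29.4, 40.3 and 32.6 CPM at day 1. It had 42.6, 46.6 and 40.5 CPM at day 2, and 39.0, 74.6 and 100.1 CPM at day 7. Its lowest day 7 library equalled the highest sedentary one to the digits shown, and the others lay above every library of the other days. The day 7 log2 fold change was 1.30 ± 0.26 (edgeR adjusted p = 0.0539), which missed the threshold, while DESeq2 gave an adjusted p of 0.000245. The fast calsequestrin Casq1 ranged from 3704 to 4744 CPM over the 12 libraries with no call. Per kilobase, Casq2 transcript per 1000 of Casq1 was 4.76 in sedentary mice, 5.92 at day 1, 7.24 at day 2 and 11.002 at day 7.

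Atp2a2, the slow-fibre pump, had 57.0, 106 and 44.2 CPM in sedentary quadriceps, 37.1, 39.5 and 48.4 CPM at day 1, and 44.8, 33.0 and 41.3 CPM at day 2. The sedentary mice were themselves far apart, and 1 day 1 and 1 day 2 library lay above the lowest of them. The log2 fold change was -0.70 ± 0.26 at day 1 (edgeR adjusted p = 0.401) and -0.77 ± 0.26 at day 2 (adjusted p = 0.317). Atp2a1 was 54874 ± 1830 CPM at day 7 and 60606 ± 911 CPM in sedentary mice (SD, n = 3 each; log2 fold change -0.12 ± 0.04, edgeR adjusted p = 0.443). Ryr1 (-0.15, -0.08 and -0.16 at days 1, 2 and 7) and Cacna1s (-0.10, 0.08 and -0.23) gave no call on any day. Over all genes, 0.582% were called at day 1, 0.299% at day 2 and 0.214% at day 7, and over the 3 days 2 of 24 tests of these genes gave a call.

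**Figure D2:**
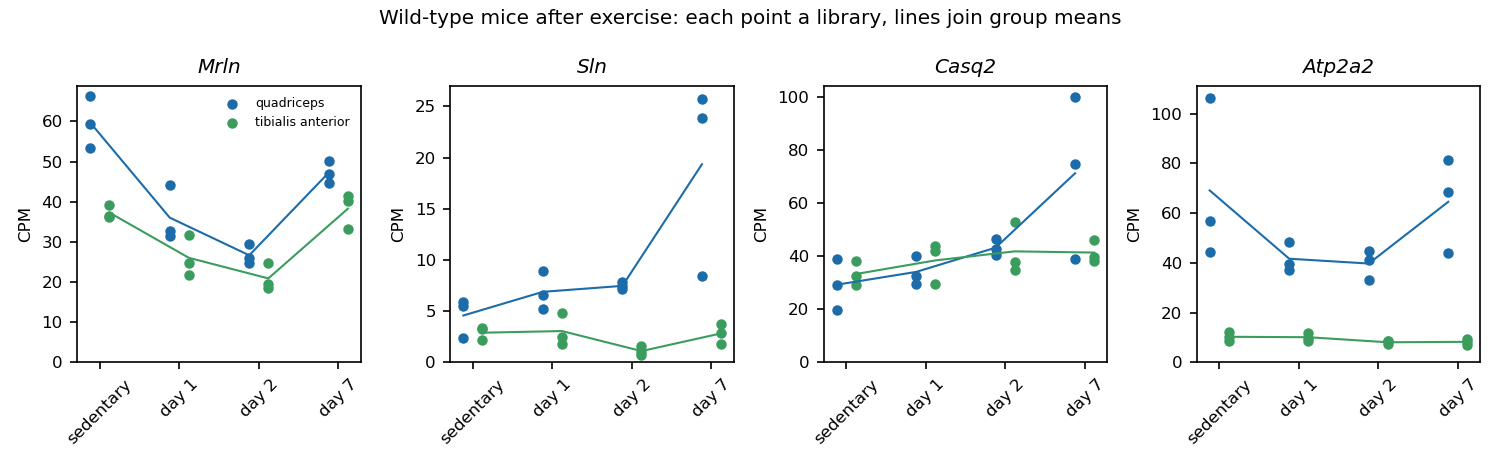
CPM of members with a value discussed for wild-type mice (vertical axes) against the day after exercise (horizontal axis), in quadriceps and tibialis anterior; each point is a library and lines join group means. Mrln is lowest at day 2 in both muscles, and Sln and Casq2 reach their highest quadriceps values at day 7.

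Markers of regenerating fibres moved at the same time as Sln and Casq2. They summed to 29.4 to 98.0 CPM in quadriceps at day 7 and to 6.10 to 11.2 CPM in sedentary quadriceps, and 2 of the 4 tested rose, the embryonic myosin Myh3 and the perinatal myosin Myh8. Myh3 was 36.3 ± 21.96 CPM at day 7 and 1.21 ± 0.81 CPM in sedentary mice (SD, n = 3 each), while the fusion factor Mymx was at 0 in sedentary mice. In bulk tissue, more fibres of a kind and more RNA per fibre cannot be told apart, nor can fewer cells of a type and less RNA per cell, and the part of these markers in the Sln and Casq2 values was not tested.

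In tibialis anterior no member passed the test, and Mrln had its lowest values at day 2 there too. Mrln had 39.3, 36.2 and 36.4 CPM in sedentary mice, 24.7, 21.7 and 31.7 CPM at day 1, 19.6, 24.6 and 18.5 CPM at day 2, and 41.5, 40.1 and 33.2 CPM at day 7. The day 1 and day 2 libraries all lay below the sedentary ones, and the day 7 libraries overlapped them. The log2 fold changes were -0.48 ± 0.17 at day 1 (edgeR adjusted p = 0.447), -0.80 ± 0.17 at day 2 (adjusted p = 0.115) and 0.10 at day 7. Sln was 1.00, 1.59 and 0.728 CPM at day 2 against 3.33, 2.14 and 3.23 CPM in sedentary mice, with no overlap (log2 fold change -1.34 ± 0.57, adjusted p = 0.584). At days 1, 2 and 7 the log2 fold changes were 0.08, 0.08 and 0.12 for Atp2a1, 0.01, -0.32 and -0.25 for Atp2a2, and 0.03, 0.05 and 0.23 for Casq1. They were 0.24, 0.36 and 0.38 for Casq2, 0.07, 0.14 and 0.06 for Ryr1, and 0.11, 0.21 and 0.04 for Cacna1s, with edgeR adjusted p of 0.35 or more. Over all genes, 0.0552% were called at day 1, 0.063% at day 2 and 0.0158% at day 7, beside 0 of 24 tests here. At an unadjusted p under 0.05, edgeR gave 7 of the 24, and DESeq2 called 2 of them. Of all 12692 genes tested, 1034, 956 and 713 had an unadjusted edgeR p under 0.05 at days 1, 2 and 7.

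Whether the muscles responded unlike each other was tested directly, and no member was called. The difference in the Sln response, quadriceps minus tibialis anterior, was 2.07 ± 0.65 on the log2 scale at day 2 (edgeR adjusted p = 0.885) and 2.09 ± 0.62 at day 7 (adjusted p = 0.489). For Mrln at day 2 it was -0.34 (95% interval -0.81 to 0.13, adjusted p = 0.96), and for Casq2 at day 7 it was 0.93 ± 0.35 (adjusted p = 0.757). For Atp2a1 at day 7 the difference was -0.24 ± 0.06 (adjusted p = 0.271). It was called with library totals (-0.20, adjusted p = 0.0444), with no filter (-0.26, adjusted p = 5.1e-07), without quadriceps day 7 mouse number 8 (-0.29, adjusted p = 0.0366) and without sedentary tibialis anterior number 7 (-0.30, adjusted p = 0.0278). At days 1, 2 and 7 the differences were -0.71, -0.45 and 0.19 for Atp2a2, -0.08, -0.07 and -0.13 for Casq1, -0.21, -0.12 and -0.26 for Cacna1s, and -0.22 on each day for Ryr1. Of the 24 tests, edgeR called 0, with 6 at an unadjusted p under 0.05 and 0 called by DESeq2. Of all 13819 genes tested, 758, 740 and 733 had an unadjusted edgeR p under 0.05 at days 1, 2 and 7. The percentages of all genes called in these tests were 0.0434 at day 1, 0.00724 at day 2 and 0.0796 at day 7.

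The resting muscles differed most in the slow-fibre pump. Atp2a2 had 57.0, 106 and 44.2 CPM in sedentary quadriceps, against 12.03, 8.57 and 10.3 CPM in sedentary tibialis anterior. All quadriceps libraries lay far above all tibialis anterior libraries. The log2 fold change was 2.72 ± 0.26 (SE; edgeR adjusted p = 2e-07) and held in all 32 alternatives, from 2.29 to 2.96. Mrln was also higher in quadriceps without overlap, with 59.7 ± 6.49 CPM against 37.3 ± 1.70 CPM in tibialis anterior (SD, n = 3 each; log2 fold change 0.67 ± 0.16, adjusted p = 0.026). The Mrln call was lost with 5 of 24 libraries left out in turn, sedentary quadriceps number 6 and 7 and sedentary tibialis anterior number 5, 6 and 7 (adjusted p up to 0.17), and with the animal number as a replicate block (0.67, adjusted p = 0.0549). Of all genes, 1.3% were called, and 2 of the 8 tested members were.

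Slow-fibre markers moved with Atp2a2 between the muscles. The 8 markers summed to 691 to 1218 CPM in quadriceps and 218 to 233 CPM in tibialis anterior, and 6 of 8 were called higher. The slow myosin Myh7 was 229 CPM in quadriceps and 5.54 CPM in tibialis anterior. Casq2 did not follow the slow-fibre markers, at 29.3 CPM in sedentary quadriceps and 33.3 CPM in sedentary tibialis anterior. Per kilobase, Atp2a2 transcript per 1000 of Atp2a1 was 0.655 ± 0.32 in quadriceps and 0.0935 ± 0.017 in tibialis anterior (SD, n = 3 each). Atp2a1 (-0.06), Casq1 (0.04), Casq2 (-0.20), Ryr1 (0.21), Cacna1s (0.09) and Sln (0.63 ± 0.45) gave no call between the muscles (edgeR adjusted p of 0.26 to 0.942). Of the 37 pathway genes tested, 1 was called, the calmodulin gene Calm2, at 140 CPM in quadriceps and 97.2 CPM in tibialis anterior (0.53 ± 0.12, edgeR adjusted p = 0.0192), and this count was 0 with any of 5 sedentary libraries left out (quadriceps number 5, 6 and 7, tibialis anterior number 5 and 6) and 2 with any of 6 libraries taken after exercise left out (quadriceps day 1 number 16 and 19 and day 7 number 8, tibialis anterior day 1 number 17, day 2 number 13 and day 7 number 10). The shares of all genes called without each library are not given, so the changed counts say nothing particular to the pathway genes. After exercise edgeR called 0 of these pathway genes on any day. At an unadjusted p under 0.05 it gave 10 of 111 tests in quadriceps and 15 of 108 in tibialis anterior. DESeq2 called 1 in quadriceps and 2 in tibialis anterior. Of all 13062 genes tested in quadriceps, 1075, 1171 and 1033 had an unadjusted edgeR p under 0.05 at days 1, 2 and 7. Of all 12692 in tibialis anterior, 1034, 956 and 713 did.

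In the acute experiment the genotypes differed at rest and at day 7, in the libraries that stood apart, and gave no call at day 1. In sedentary DTR+ mice Atp2a1 had 5518 and 6181 CPM, against 22294, 42323 and 49885 CPM in sedentary DTR- mice. The groups did not overlap, and the DTR- mice were spread over more than a doubling among themselves. The difference was -2.39 ± 0.24 on the log2 scale (SE; edgeR adjusted p = 8.29e-07). Cacna1s had 37.0 and 39.8 CPM in DTR+ mice, against 181, 229 and 246 CPM in DTR- mice, again without overlap (log2 fold change -2.20 ± 0.17, adjusted p = 9.86e-08).

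The inhibitors went the other way. Mrln had 167 and 166 CPM in sedentary DTR+ mice, against 100.4, 77.9 and 63.6 CPM in sedentary DTR- mice. Both DTR+ libraries lay above every DTR- library (log2 fold change 1.35 ± 0.19, edgeR adjusted p = 2.38e-05). Sln had 11.9 and 11.7 CPM in DTR+ mice, against 5.45, 6.17 and 10.3 CPM in DTR- mice, without overlap (1.01 ± 0.34, adjusted p = 0.0321). The Sln call was lost in 8 of 23 alternatives, among them scaling to library totals (0.70, adjusted p = 0.14) and the removal of a trend on length and GC content (0.56, adjusted p = 0.276). Leaving out DTR+ mouse number 2 or 3, or DTR- mouse number 1 or 2, also ended it (adjusted p of 0.0961 to 0.128).

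Ryr1 is a gene whose value here depended on the scaling. It had 748 and 776 CPM in sedentary DTR+ mice, against 698, 646 and 639 CPM in sedentary DTR- mice, without overlap. The log2 fold change was 0.51 ± 0.17 (edgeR adjusted p = 0.032), 0.20 with library totals (adjusted p = 0.423) and 1.27 with the length and GC trend removed (adjusted p = 7.97e-06), and 9 of 23 alternatives ended the call. Leaving out a DTR+ sedentary mouse (number 2 or 3), DTR- sedentary mouse number 2 or 3, or DTR+ day 1 mouse number 1 or 2 or DTR- day 1 mouse number 2 or 3 was enough (adjusted p of 0.0501 to 0.138). Casq1 had 3934 and 3879 CPM in DTR+ mice, against 6462, 6401 and 7088 CPM in DTR- mice, without overlap, but was not called at this scaling (-0.46 ± 0.20, adjusted p = 0.105). It was called with library totals (-0.77, adjusted p = 0.00522). Atp2a2 (0.05 ± 0.17) and Casq2 (0.08 ± 0.19) gave no call. Of all genes, 26.6% were called at rest, beside 5 of the 9 members.

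In this experiment the median of all genes moved with the library scaling. From TMM factors to library totals the median log2 fold change over all genes moved by -0.31 at rest, -0.28 at day 7 and 0.53 for DTR+ mice at day 1 against rest. The split of called genes at rest was 1723 higher and 2071 lower with TMM, 882 and 3085 with library totals, and 1877 and 1145 with the length and GC trend removed. The values of Atp2a1 (-2.71 to -1.69), Cacna1s (-2.51 to -1.56) and Mrln (0.80 to 1.56) kept their direction and their call in all 23 alternatives.

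At day 7 the pattern of the sedentary mice was present again, with Sln higher still. Atp2a1 had 7191 and 6657 CPM in DTR+ mice, against 31451 and 48458 CPM in DTR- mice (log2 fold change -2.25 ± 0.25, edgeR adjusted p = 3.23e-06). Cacna1s had 64.8 and 44.8 CPM in DTR+ mice, against 313 and 307 CPM in DTR- mice (-2.21 ± 0.18, adjusted p = 1.84e-07). Neither gene's groups overlapped.

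Sln had 47.8 and 42.1 CPM in DTR+ mice at day 7, against 12.3 and 12.7 CPM in DTR- mice (2.13 ± 0.37, edgeR adjusted p = 0.000256). Mrln had 160 and 184 CPM in DTR+ mice, against 72.0 and 87.6 CPM in DTR- mice (1.38 ± 0.21, adjusted p = 7.33e-05). Both inhibitors were higher in each DTR+ library than in each DTR- library, and both calls held in all 23 alternatives. Casq1 had 3893 and 2228 CPM in DTR+ mice, against 6404 and 6376 CPM in DTR- mice (-0.78 ± 0.22, adjusted p = 0.0136). Its DTR+ mice were far apart, and the Casq1 value was -0.44 without DTR+ mouse number 3 (adjusted p = 0.204) and -1.26 without mouse number 2. The Casq1 call was also lost when only the 2 groups were fitted (-0.73, adjusted p = 0.0733). Atp2a2 (0.05 ± 0.19) and Casq2 (0.37 ± 0.20) gave no call. Ryr1 was not called at day 7 (0.04), and with the trend removed it was 1.28 (adjusted p = 2.54e-05). Of all genes, 25.3% were called at day 7, beside 5 of the 9 members. The genes called were 1613 higher and 1995 lower, against 1013 and 2994 with library totals, 1708 and 1059 with the trend removed and 1121 and 907 from the 2 groups alone.

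At day 1 after exercise the genotypes gave no call. Atp2a1 had 67633, 67053 and 62869 CPM in DTR+ mice, against 67373, 63810 and 57444 CPM in DTR- mice, and Mrln had 44.8, 46.0 and 47.7 CPM in DTR+ mice, against 33.7, 45.6 and 38.2 CPM in DTR- mice. The Atp2a1 groups overlapped, while the Mrln groups overlapped in 1 library. The difference in Atp2a1 was 0.09 on the log2 scale (95% interval -0.31 to 0.49) and that in Cacna1s 0.22 (-0.07 to 0.51). It was 0.19 for Atp2a2, 0.52 for Sln, 0.27 for Mrln, -0.12 for Casq1, -0.21 for Casq2 and 0.28 for Ryr1. Of all 14245 genes tested, 0 were called at day 1 by edgeR, with 280 at an unadjusted p under 0.05 and 0 called by DESeq2.

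**Figure D3:**
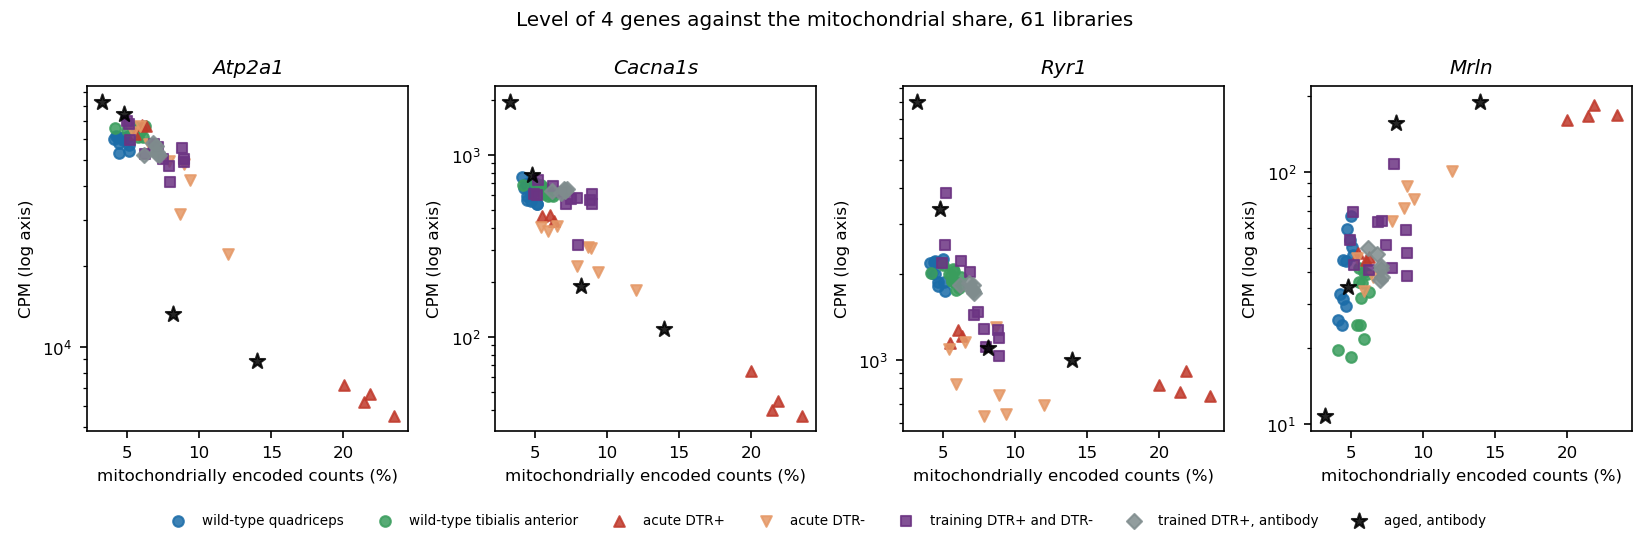
CPM of 4 of the genes (vertical axes, log scale) against the percentage of counts from mitochondrially encoded genes (horizontal axis) in all 61 libraries, coloured and shaped by group. The 4 DTR+ libraries of rest and day 7 sit alone at 20.01 to 23.5%, with low Atp2a1 and Cacna1s and high Mrln.

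Within each genotype, day 1 was then set against rest. In DTR+ mice Atp2a1 rose (2.96 ± 0.24, edgeR adjusted p = 9.68e-09), Cacna1s rose (3.03 ± 0.18, adjusted p = 3.63e-10) and Mrln fell (-2.38 ± 0.19, adjusted p = 5.87e-09). Atp2a2 was 56.3 ± 2.94 CPM at day 1 and 68.2 ± 5.59 CPM at rest (SD, n = 3 and 2; -0.81 ± 0.17, adjusted p = 0.000695), and the value with library totals was -0.27 (adjusted p = 0.185). Casq1 also fell (-0.58 ± 0.20, adjusted p = 0.0235), but its value was -0.05 with library totals (adjusted p = 0.836). That Casq1 call was also lost without sedentary mouse number 2 or 3 or day 1 mouse number 1 or 2 (adjusted p of 0.0673 to 0.107). Sln (-0.63 ± 0.33, adjusted p = 0.135) and Casq2 (-0.19 ± 0.19, adjusted p = 0.427) gave no call. Of all genes, 42.4% were called in this comparison. The rest group here is the 2 sedentary DTR+ libraries that stood apart. Mitochondrial shares were 21.4 to 23.5% at rest and 5.53 to 6.31% at day 1. The length slope was -0.262 to -0.250 at rest and -0.020 to 0.032 at day 1. At rest 14701 to 14745 genes were detected, against 23450 to 26524 at day 1. These properties cannot be told apart from the day in this comparison.

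In DTR- mice, whose libraries stood less far apart, Mrln, Atp2a2 and Casq1 fell from rest to day 1. Mrln had 33.7, 45.6 and 38.2 CPM at day 1, against 100.4, 77.9 and 63.6 CPM at rest, without overlap (-1.30 ± 0.17, edgeR adjusted p = 7.09e-05). Atp2a2 had 45.1, 53.0 and 53.0 CPM at day 1, against 97.2, 68.1 and 78.0 CPM at rest, also without overlap (-0.95 ± 0.16, adjusted p = 0.000451). Casq1 was 4171 ± 672 CPM at day 1 and 6650 ± 380 CPM at rest (SD, n = 3 each; -0.92 ± 0.18, adjusted p = 0.00168). Mrln, Atp2a2 and Casq1 each kept their call in all 23 alternatives. Cacna1s was 397 ± 10.96 CPM at day 1 and 219 ± 33.6 CPM at rest (0.61 ± 0.14, adjusted p = 0.00511), but 0.27 with the length and GC trend removed (adjusted p = 0.208). Atp2a1 had 67373, 63810 and 57444 CPM at day 1, against 22294, 42323 and 49885 CPM at rest. Its groups did not overlap, but it was not called (0.48 ± 0.19, adjusted p = 0.0969). It was called with library totals (0.72, adjusted p = 0.0144), with no filter (0.50, adjusted p = 9.29e-07) and without sedentary mouse number 3 (0.68, adjusted p = 0.0289). Sln (-0.14) and Casq2 (0.10) gave no call. Of all genes, 16.4% were called. The length slope was -0.031 to 0.013 at day 1, against -0.196 to -0.139 at rest, and 21211 to 26596 genes were detected at day 1, against 16508 to 16799 at rest. Their part in these values was not tested beyond the removal of the trend.

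Direction could not be given for Ryr1 at day 1, because it turned with the processing. Its log2 fold change at day 1 against rest was 0.14 in DTR+ mice with TMM factors, 0.68 with library totals (edgeR adjusted p = 0.00475) and -1.61 with the length and GC trend removed. In DTR- mice the Ryr1 values were 0.37, 0.63 (adjusted p = 0.00945) and -0.51 (adjusted p = 0.0128). Ryr1 has the longest exonic sequence of the 9 genes, 21838 bases, and the groups compared differ in the length slope. At day 7 against rest, Sln rose in DTR+ mice (1.81 ± 0.36, adjusted p = 0.0184, with 1.01% of all genes called), and edgeR called 0 of the 9 members in DTR- mice (2 at an unadjusted p under 0.05, 0 by DESeq2), where 0.00702% of all genes were called. Of all 14245 genes tested, 1105 had an unadjusted edgeR p under 0.05 in DTR- mice. The values in DTR+ and in DTR- mice were 0.12 and -0.02 for Atp2a1, -0.05 and -0.05 for Atp2a2, -0.08 and -0.12 for Mrln, -0.48 and -0.16 for Casq1, and 0.66 and 0.38 for Casq2. They were 0.06 and 0.53 for Ryr1 and 0.39 and 0.40 for Cacna1s, and Sln was 0.69 in DTR- mice. The Sln call was lost without DTR+ sedentary mouse number 2 or 3 and when only the 2 groups were fitted (adjusted p of 0.0695 to 0.102), and the Sln response at day 7 did not differ between genotypes by the test of that difference (1.12 ± 0.50, adjusted p = 0.465, with 0.0772% of all genes called). The other differences at day 7 were 0.14 for Atp2a1, -0.01 for Atp2a2, 0.04 for Mrln, -0.32 for Casq1, 0.28 for Casq2, -0.47 for Ryr1 and -0.02 for Cacna1s, with adjusted p of 0.57 or more.

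The day 1 response itself differed between genotypes for 3 genes. The difference, DTR+ minus DTR-, was 2.48 ± 0.30 for Atp2a1 (edgeR adjusted p = 2.49e-05), 2.42 ± 0.22 for Cacna1s (adjusted p = 1.94e-06) and -1.08 ± 0.25 for Mrln (adjusted p = 0.00557). With the length and GC trend removed these were 1.81, 1.76 and -0.53, and the Mrln difference was then not called (adjusted p = 0.177). Atp2a2 (0.13), Sln (-0.49), Casq1 (0.34), Casq2 (-0.29) and Ryr1 (-0.24) gave no call. Of all genes, 15.3% were called. These 3 genes differed between the genotypes at rest and gave no call between them at day 1.

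Pairs that work together in the fibre did not keep their proportion in the DTR+ libraries of rest and day 7 in the acute experiment. Per kilobase, Ryr1 over Cacna1s was 5.95 ± 0.14 in sedentary DTR+ mice and 0.927 ± 0.20 in sedentary DTR- mice (SD, n = 2 and 3), and 4.94 ± 1.64 in DTR+ and 0.995 ± 0.37 in DTR- mice at day 7 (n = 2 each). At day 1 it was 0.803 ± 0.05 in DTR+ and 0.771 ± 0.11 in DTR- mice (n = 3 each). Atp2a2 per 1000 of Atp2a1 was 6.71 ± 1.08 in sedentary DTR+ and 1.44 ± 0.92 in sedentary DTR- mice. The mitochondrial share, the length slope and the number of genes detected (14701 to 14745 in sedentary DTR+ and 16508 to 16799 in sedentary DTR- libraries) differed between the same groups, and these cannot be told apart from genotype in this experiment.

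Fibre and other cell markers also moved in these groups. Fast-fibre markers summed to 50930 to 52516 CPM in sedentary DTR+ mice, against 42608 to 44358 CPM in sedentary DTR- mice, with 5 of 7 called higher and 1 lower, beside 26.6% of all genes. Skeletal fibre markers summed to 155416 to 166834 CPM in sedentary DTR+ mice, against 189345 to 198058 CPM in sedentary DTR- mice, with 2 of 7 called higher and 2 lower. Among these Ckm, the muscle creatine kinase, was lower as Atp2a1 was, at 9269 CPM in DTR+ mice and 35705 CPM in DTR- mice (-1.64 ± 0.14, edgeR adjusted p = 1.26e-07). Smooth muscle markers summed to 91.2 to 102 CPM in sedentary DTR+ mice, against 157 to 211 CPM in sedentary DTR- mice, with Cnn1 at 0 in the DTR+ ones. At day 7 T and NK cell markers summed to 19.2 to 52.4 CPM in DTR+ mice, against 3.90 to 6.59 CPM in DTR- mice. Of these, 4 of 5 tested were called higher, beside 25.3% of all genes. The 52.4 CPM came from DTR+ mouse number 3, where blood markers summed to 835 CPM, against 187 CPM in DTR+ mouse number 2. Macrophage markers summed to 289 to 522 CPM in DTR+ mice, against 206 to 246 CPM in DTR- mice. The part of any of these in the values of the 9 genes was not tested.

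The other genes of excitation-contraction coupling and calcium handling moved in both directions in the same comparisons. Of 38 listed genes 37 were tested, and at rest 9 were called higher and 12 lower in DTR+ than in DTR- mice, beside 26.6% of all genes called, with a median log2 fold change of 0.04 against -0.06 over all genes. Stac3, which couples the voltage sensor to the release channel, was 10.2 CPM in DTR+ mice, against 72.7 CPM in DTR- mice (-2.52 ± 0.23, edgeR adjusted p = 3.73e-07). Slc8a3, a sodium-calcium exchanger, was 1.98 CPM in DTR+ mice, against 17.7 CPM in DTR- mice (-2.84 ± 0.36, adjusted p = 9.69e-06). Tmem38a, a potassium channel of the store membrane, was 681 CPM in DTR+ mice, against 1617 CPM in DTR- mice (-0.94 ± 0.13, adjusted p = 2.58e-05). The calcium sensors Calm2 and S100a1 were higher, with Calm2 at 755 CPM in DTR+ mice against 315 CPM in DTR- mice (1.57 ± 0.20, adjusted p = 9.82e-06) and S100a1 at 387 CPM in DTR+ mice against 210 CPM in DTR- mice (1.19 ± 0.15, adjusted p = 1.35e-05).

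At day 7, 7 of the 37 were called higher and 12 lower, beside 25.3% of all genes called, with a median of -0.34 against -0.10 over all genes. Stac3 was 11.6 CPM in DTR+ mice, against 93.9 CPM in DTR- mice (-2.72 ± 0.24, edgeR adjusted p = 3.35e-07). The kinase Camk2a was 51.8 CPM in DTR+ mice, against 254 CPM in DTR- mice (-1.997 ± 0.25, adjusted p = 1.22e-05), and the triad protein Jsrp1 was 93.3 CPM in DTR+ mice, against 232 CPM in DTR- mice (-1.03 ± 0.15, adjusted p = 4.52e-05). Calm2 (1.75 ± 0.23) and S100a1 (1.35 ± 0.17) were again higher in DTR+ mice, each with an adjusted p of 1.56e-05.

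At day 1 against rest in DTR+ mice, 17 of the 37 rose and 12 fell (42.4% of all genes were called), led by Stac3 (3.05 ± 0.24), Jsrp1 (1.23 ± 0.14) and the store-calcium sensor Stim1 (2.27 ± 0.26) among those that rose. Calm2 (-2.95 ± 0.20) and S100a1 (-1.96 ± 0.15) were among those that fell, all 5 with edgeR adjusted p of 6.24e-07 or less. In DTR- mice 7 rose and 11 fell (16.4% of all genes). There the triad membrane protein Sypl2 (-1.54 ± 0.19, adjusted p = 3.47e-05) and triadin, Trdn (-0.82 ± 0.13), fell. The surface calcium pump Atp2b1 (0.79 ± 0.17), the third SERCA gene Atp2a3 (2.00 ± 0.47) and Stim1 (0.78 ± 0.21) rose, the last with an adjusted p of 0.0148. The difference between these responses was called for 17 of the 37 genes (15.3% of all genes), 10 of them higher in DTR+ (Stac3, 2.60 ± 0.29; Slc8a3, 3.09 ± 0.43; Tmem38a, 0.98 ± 0.17) and 7 lower (Calm2, -1.84 ± 0.27; S100a1, -1.14 ± 0.21). Their adjusted p ran up to 0.000838 for the 5 named. At day 7 against rest edgeR called 0 of the 37 in either genotype (6 in DTR+ and 9 in DTR- mice at an unadjusted p under 0.05, 1 and 0 by DESeq2). Of all 14245 genes tested, 2023 in DTR+ and 1105 in DTR- mice had an unadjusted edgeR p under 0.05. Between genotypes at day 1 edgeR called 0 of the 37 (0 unadjusted, 0 by DESeq2).

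Casq2 rose with training for 2 weeks in DTR+ mice, and gave a rise of similar size below the threshold in DTR- mice. Casq2 had 69.7, 135 and 146 CPM in trained DTR+ mice, against 47.5, 37.9 and 37.2 CPM in sedentary DTR+ mice. Every trained library lay above every sedentary one. The log2 fold change was 1.47 ± 0.25 (SE; edgeR adjusted p = 0.00304, with 2.21% of all genes called), and it held in all 20 alternatives (1.31 to 1.73).

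In DTR- mice Casq2 had 102, 110 and 69.2 CPM after training, against 44.9, 32.4 and 43.3 CPM at rest, also without overlap. The fit gave 1.15 ± 0.25 on the log2 scale (edgeR adjusted p = 0.127, with 0.103% of all genes called), and DESeq2 called it (adjusted p = 0.00457). The Casq2 response did not differ between the genotypes by the test of that difference (0.32 ± 0.35, 95% interval -0.41 to 1.04, adjusted p = 0.969, with 0.27% of all genes called). Per kilobase, Casq2 per 1000 of Casq1 was 22.3 ± 9.10 in trained and 6.61 ± 1.78 in sedentary DTR+ mice, and 15.5 ± 4.23 in trained and 5.30 ± 0.74 in sedentary DTR- mice (SD, n = 3 each).

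Sln moved in the same direction with more scatter. It had 28.7, 13.1 and 22.7 CPM in trained DTR- mice, against 3.79, 5.53 and 4.57 CPM in sedentary DTR- mice. The groups did not overlap, but the fit gave no call (2.17 ± 0.53, edgeR adjusted p = 0.255), while DESeq2 did (adjusted p = 0.0151). In DTR+ mice it had 7.71, 28.9 and 23.4 CPM after training, against 6.06, 16.9 and 3.57 CPM at rest, with overlap (0.99 ± 0.50, adjusted p = 0.4). The sedentary DTR+ mouse with 16.9 CPM is mouse number 2, whose length slope stood apart, and without it the Sln value was 2.05 (adjusted p = 0.0171).

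**Figure D4:**
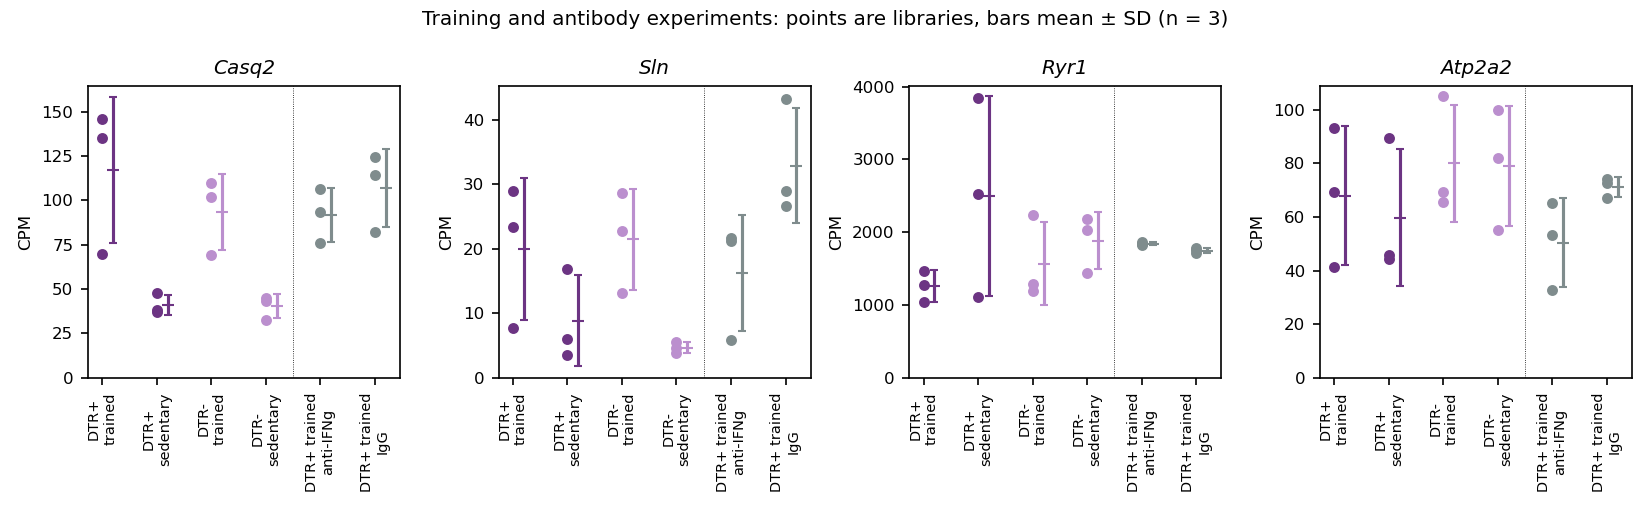
CPM (vertical axes, from 0) of genes of the set in the training and antibody experiments; points are libraries and bars are group mean ± SD (n = 3). Casq2 is higher in both trained groups than in the sedentary groups, and Sln varies more than Casq2 within groups.

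Ryr1 in the training experiment varied with the sedentary DTR+ mice whose length slopes stood apart. It had 1270, 1034 and 1468 CPM in trained DTR+ mice, against 2526, 1115 and 3849 CPM in sedentary DTR+ mice. The lowest sedentary library, mouse number 2, lay within the trained range. The highest, mouse number 3, had a length slope of 0.19 and the lowest total of the series. The log2 fold change was -0.99 ± 0.29 (edgeR adjusted p = 0.0844). Without mouse number 2, and with mouse number 3 kept, it was -1.29 (adjusted p = 0.00224). In DTR- mice Ryr1 had 2229, 1287 and 1190 CPM after training and 1440, 2027 and 2184 CPM at rest, with overlap. The Ryr1 response did not differ between genotypes by its test (-0.66 ± 0.41, adjusted p = 0.881).

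Mrln and the fast-fibre genes gave no call with training. Mrln had 58.5, 38.7 and 51.4 CPM in trained and 69.3, 107 and 42.9 CPM in sedentary DTR+ mice (-0.66 ± 0.28, edgeR adjusted p = 0.281). It had 40.7, 41.7 and 47.7 CPM in trained and 63.5, 63.4 and 53.6 CPM in sedentary DTR- mice, without overlap (-0.53, adjusted p = 0.999). Atp2a1 was 51808 ± 3295 CPM in trained and 56501 ± 13661 CPM in sedentary DTR+ mice, and 50466 ± 2642 CPM in trained and 61421 ± 7805 CPM in sedentary DTR- mice (SD, n = 3 each). Casq1 had 4230, 4213 and 4632 CPM in trained DTR- mice, against 5689, 5198 and 5319 CPM in sedentary DTR- mice, without overlap (-0.37 ± 0.16, adjusted p = 0.925). In DTR+ mice the Casq1 value was -0.29 ± 0.16. Atp2a2 was 0.10 ± 0.33 in DTR+ and -0.04 ± 0.33 in DTR- mice, and Cacna1s was 0.07 ± 0.19 in DTR+ and -0.03 ± 0.19 in DTR- mice. The training responses of the genotypes differed by 0.19 for Atp2a1, 0.14 for Atp2a2, -1.18 ± 0.72 for Sln, -0.13 for Mrln, 0.08 for Casq1 and 0.10 for Cacna1s, with no call. Between genotypes edgeR called 0 of the 8 members in trained mice (0.89% of all genes) and 0 of 8 in sedentary mice (0.0477% of all genes), with 0 at an unadjusted p under 0.05 and 0 called by DESeq2 in either. These differences, DTR+ over DTR-, were -0.26 (Ryr1) to 0.38 (Casq2) in trained mice, with Atp2a1 at 0.09, Atp2a2 at -0.17, Sln at -0.06, Mrln at 0.24, Casq1 at -0.14 and Cacna1s at 0.02. In sedentary mice they were -0.30 (Atp2a2) to 1.12 (Sln), with Atp2a1 at -0.10, Mrln at 0.38, Casq1 at -0.22, Casq2 at 0.06, Ryr1 at 0.40 and Cacna1s at -0.09. Without DTR+ sedentary mouse number 3 this Ryr1 difference was -0.004. In all, 1 of 32 tests in the 4 comparisons gave a call. With 1 library left out, 5 did without DTR+ sedentary mouse number 2, 2 without DTR+ sedentary mouse number 3 and 2 without trained DTR+ mouse number 1. The share of all genes called without each library is not given, so these counts say nothing particular to these genes.

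Fast myosins moved with training in both directions in the same mice. Of the 7 fast-fibre markers edgeR called 2 higher and 1 lower in DTR+ mice and 1 higher in DTR- mice, and they summed to 46336 to 48642 CPM in trained and 52853 to 62225 CPM in sedentary DTR+ mice. Myh4, the myosin of the fastest fibres, was 20166 ± 2233 CPM in trained and 34249 ± 4505 CPM in sedentary DTR+ mice (-0.80 ± 0.14, edgeR adjusted p = 0.00473). It was 22585 ± 3096 CPM in trained and 32131 ± 2140 CPM in sedentary DTR- mice (-0.57 ± 0.14, adjusted p = 0.29). Myh1 was 1.36 ± 0.18 in DTR+ mice (adjusted p = 0.000382) and 1.29 ± 0.18 in DTR- mice (adjusted p = 0.004) on the log2 scale. Myh2, the myosin of oxidative fast fibres, was 3004 ± 1115 CPM in trained and 927 ± 84.8 CPM in sedentary DTR+ mice, and 2511 ± 922 CPM in trained and 989 ± 115 CPM in sedentary DTR- mice (SD, n = 3 each), with adjusted p of 0.00107 in DTR+ and 0.0528 in DTR- mice. Slow-fibre markers summed to 759 to 941 CPM in trained and 576 to 1078 CPM in sedentary DTR+ mice, and 0 of 8 were called by edgeR. Macrophage markers summed to 309 to 420 CPM in trained and 279 to 311 CPM in sedentary DTR+ mice, and to 258 to 339 CPM in trained and 177 to 193 CPM in sedentary DTR- mice. Endothelial markers summed to 297 to 322 CPM in trained and 206 to 241 CPM in sedentary DTR- mice, and to 243 to 325 CPM in trained and 145 to 267 CPM in sedentary DTR+ mice. The part of these markers in the Casq2 and Sln values was not tested. Of the 37 pathway genes tested, 1 was called, the calmodulin gene Calm3, at 45.4 CPM in trained and 91.5 CPM in sedentary DTR+ mice (-1.02 ± 0.25, edgeR adjusted p = 0.0323), beside 2.21% of all genes. That count was 0 to 5 with 1 library left out: 5 without DTR+ sedentary mouse number 2, 3 without number 1, 0 without number 3, 0 without trained DTR+ mouse number 1 or 2, 3 without number 3 and 0 without trained DTR- mouse number 2. Here too the shares of all genes are not given, and the counts say nothing particular to the pathway genes. Of the 37 genes 32 lay below 0 in DTR+ mice, with a median of -0.22 against -0.04 over all genes.

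Neutralising interferon-gamma during training gave no call among these genes. Sln had 5.88, 21.1 and 21.7 CPM in trained DTR+ mice given the antibody, against 28.9, 43.2 and 26.6 CPM in those given IgG. All antibody libraries lay below all IgG libraries (-1.01 ± 0.33, edgeR adjusted p = 0.232). Atp2a2 had 32.6, 53.4 and 65.2 CPM with the antibody, against 74.1, 72.5 and 66.9 CPM with IgG, also without overlap (-0.50 ± 0.19, adjusted p = 0.332). Casq2 had 75.8, 106 and 93.5 CPM with the antibody and 82.1, 114 and 125 CPM with IgG, with overlap (-0.22, 95% interval -0.54 to 0.10). Mrln had 47.4, 49.9 and 42.3 CPM with the antibody, against 41.3, 38.4 and 37.2 CPM with IgG. Its groups did not overlap (0.25 ± 0.13, adjusted p = 0.531).

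For 4 other members the interval of the antibody difference was narrow. The 95% interval of the log2 fold change was -0.12 to 0.12 for Atp2a1, -0.24 to 0.28 for Casq1, -0.08 to 0.22 for Ryr1 and -0.21 to 0.13 for Cacna1s. Of all genes, 1.35% were called by edgeR, against 0 of 8 members, of which 2 had an unadjusted p under 0.05. DESeq2 also called 0 of the members. Of all 11742 genes tested, 1193 had an unadjusted edgeR p under 0.05. Slow-fibre markers summed to 468 to 967 CPM with the antibody and 1125 to 1270 CPM with IgG, and 2 of 8, Myh7 and Tnni1, were called lower. Their part in the Atp2a2 and Sln values was not tested. Of 36 pathway genes tested, 1 was called, the membrane-shaping triad gene Bin1, at 567 CPM with the antibody and 317 CPM with IgG (0.84 ± 0.17, edgeR adjusted p = 0.0262). That count was 0 with DESeq2, and 0 without IgG mouse number 1 or 2 or antibody mouse number 1, 2 or 3.

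In aged sedentary mice no comparison could be read, because the 2 mice of each group were unlike each other. Atp2a1 had 8867 and 83017 CPM with the antibody, against 74892 and 13257 CPM with IgG. Each group held a library near the highest and a library near the lowest level of the series. Ryr1 had 999 and 8034 CPM with the antibody, against 3380 and 1101 CPM with IgG, and Cacna1s had 110 and 1965 CPM with the antibody, against 782 and 190 CPM with IgG. Mrln had 189 and 10.8 CPM with the antibody, against 34.9 and 155 CPM with IgG, so the libraries low in Atp2a1 and Cacna1s were those high in Mrln.

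Casq2 did not overlap between the aged groups, with 20.9 and 15.2 CPM with the antibody and 34.1 and 48.2 CPM with IgG. With 2 unlike libraries per group this separation is not read as a difference. The 95% interval of the Atp2a1 log2 fold change ran from -3.11 to 3.32 around 0.10. The values were 1.12 for Atp2a2, -0.86 for Sln, 0.32 for Mrln, -0.22 for Casq1, -1.04 for Casq2, 1.01 for Ryr1 and 1.08 for Cacna1s, with SE of 0.97 to 1.54. Of 12531 genes tested by edgeR, 0 were called (0%), with 64 at an unadjusted p under 0.05 and 0 called by DESeq2, and 0 of the 8 members tested were called (0 unadjusted, 0 by DESeq2).

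**Figure D5:**
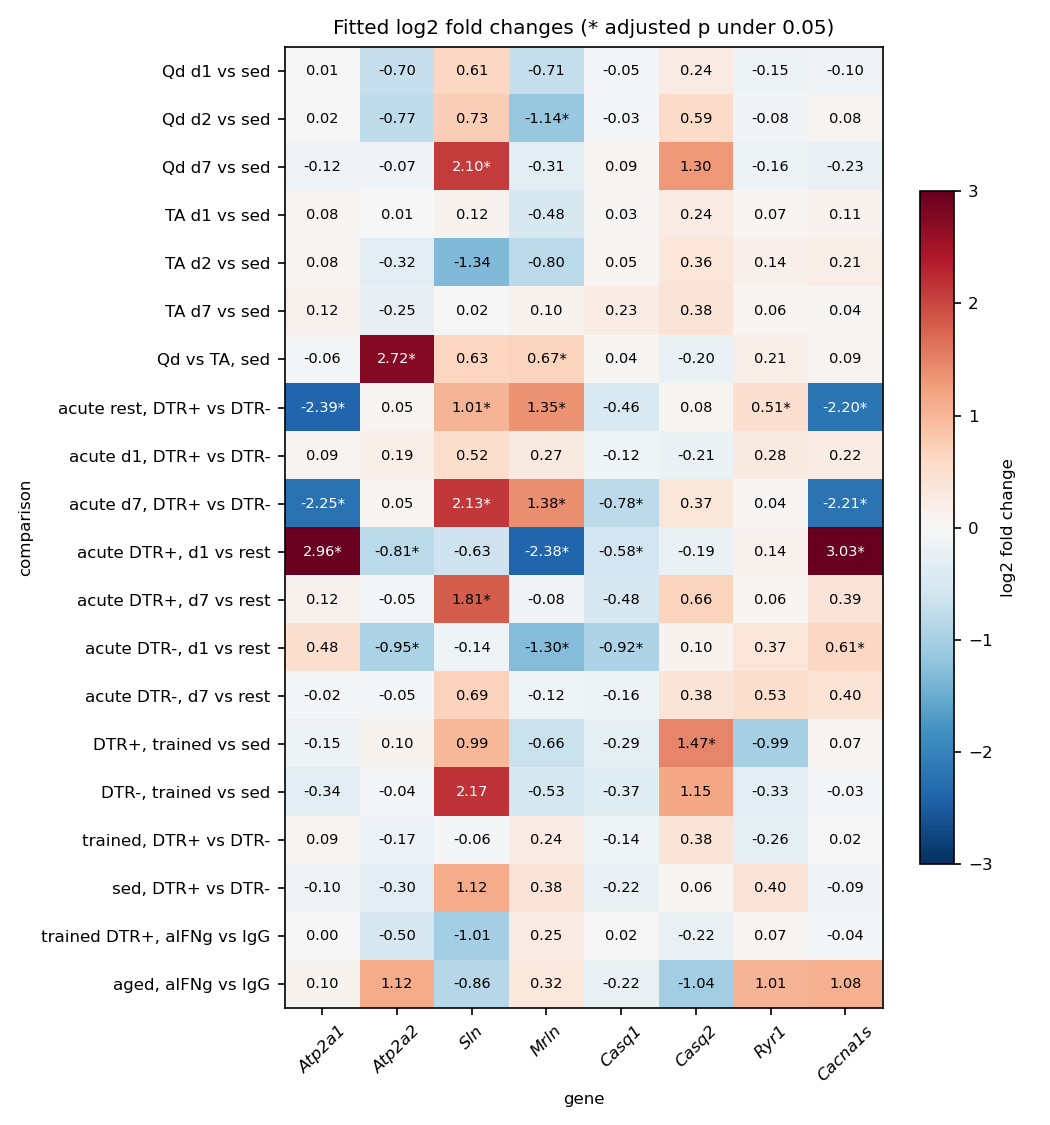
Fitted log2 fold changes (colour, from -3 to 3) of the members (horizontal axis) in the comparisons (vertical axis); stars mark an edgeR adjusted p under 0.05. Calls gather in the acute experiment, and those outside it are Mrln at day 2 and Sln at day 7 in wild-type quadriceps, Atp2a2 and Mrln between the resting muscles, and Casq2 in trained DTR+ mice.

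Patterns over the 22 groups were compared as descriptions, on log2 CPM centred within each experiment. Atp2a1 and Cacna1s had a Pearson correlation of 0.985 over the 22 groups, but 0.27 over the 14 groups outside the acute and aged experiments, whose libraries had a mitochondrial share of 8.93% at most. Mrln and Atp2a1 had -0.78 over 22 groups and 0.12 over 14. Sln and Casq2 had 0.72 over 22 groups and 0.80 over 14, and Atp2a1 and Sln had -0.44 and -0.82. Centring ties the groups of an experiment to each other, so these values carry no test.

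Of 8529 candidate genes, patterns most like that of Atp2a1 over the 22 groups were those of Atg9a (0.997) and Rab5b (0.993), and for Cacna1s those of Crat (0.993), Trappc9 (0.992) and Ncstn (0.991). For Mrln they were Thap12 (0.929), Ppm1b (0.928) and Skp1a (0.923), and for Casq1 the glycolytic and energy genes Ak1 (0.903), Ldha (0.898) and Tpi1 (0.891). Casq2 was most like Chrna1 (0.841), the muscle acetylcholine receptor subunit, Rwdd4a (0.827) and Il15 (0.816), and Sln most like Tmsb4x (0.793), Ifi203 (0.790) and Cyba (0.785).

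Atp2a2 was most like Rabl3 (0.853), the slow troponin Tnnc1 (0.806) and the slow tropomyosin Tpm3 (0.728). Ryr1 was most like Msrb3 (0.878), Atp8a1 (0.874) and Samd4 (0.863). Pln was most like Ghr (0.850), Lhfpl2 (0.824) and Tnfaip3 (0.811). With 0 counts in 11 of the 61 libraries and at most 16 in any, the Pln pattern carries much counting error and is not read further. Over the 14 groups outside the acute and aged experiments the nearest gene was another for all 9 members. Mrln was then nearest to Pla2g7 (0.938), Vldlr (0.927) and Igfn1 (0.903), and Casq2 to Itgb1bp2 (0.926), H19 (0.913) and Rhoc (0.908). Atp2a2 was nearest to Tpm3 (0.922), which was among its nearest 3 over the 22 groups too.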

How the data were processed

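Gene counts that the authors deposited for 61 mouse muscle libraries were the starting point. Per the labels' protocols, RNA was isolated with TRIzol from frozen muscle, and 2 ng entered the Immunological Genome Project's ultra-low-input library protocol. Per the submitters' processing notes, the authors used STAR 2.7.3a, featureCounts (no version given) and mm10. The sources used here do not give the strand setting or annotation, and 52936 symbols matched GENCODE vM21, from which exonic lengths were taken.

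Fits were made within each experiment in edgeR 4.0.16 (R 4.3.3): filterByExpr (minimum count 10, minimum total 15), TMM factors and quasi-likelihood F tests, in 20 comparisons and 6 tests of differences between responses. Calls required an adjusted p under 0.05 (Benjamini-Hochberg, over all genes tested). The SE is the absolute log2 fold change over the square root of F. CPM are counts over library totals, so ratios of CPM means and fitted fold changes can differ. Alternatives included DESeq2 1.42.0, other scalings, no filter and an offset for exonic length and GC content (spline with 4 degrees of freedom). The p-values set a difference against the spread between libraries within groups, estimated from all groups of a fit together. The steps were tested on simulated data. No 2 libraries of a group agreed within sampling noise (lowest chi-square per degree of freedom 4.04).

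Wild-type quadriceps and tibialis anterior carry the same animal numbers, taken as the same animals. Their deviations correlated at -0.033 to 0.053 in 12 pairs.

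Every member that passed the filter was named in each comparison whatever its p (Pln passed in the acute experiment only), with up to 3 called pathway genes in each direction by smallest p, and the 3 nearest patterns per member. A few genes that this rule names are not reported here. The members and the lists were chosen with earlier results of these data known.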

Additional observations from a re-analysis of the deposited data

Results flagged for a closer look

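In the acute experiment the day 1 response differed between genotypes for 3 of the 9 genes by the test of the difference itself (edgeR, n = 2 to 3 per group). The difference, DTR+ minus DTR- on the log2 scale, was 2.48 ± 0.30 for Atp2a1 (SE, adjusted p = 2.49e-05), 2.42 ± 0.22 for Cacna1s (adjusted p = 1.94e-06) and -1.08 ± 0.25 for Mrln (adjusted p = 0.00557). Of all 14245 genes tested, 15.3% were called in the same test. These 3 genes were called between the genotypes at rest, where the DTR+ libraries stood apart. Between genotypes at day 1, 0 of the 14245 genes were called. With the length and GC trend removed the Mrln difference was -0.53 and was not called (adjusted p = 0.177). The mitochondrial share was 21.4 to 23.5% in sedentary DTR+ and 7.89 to 11.996% in sedentary DTR- libraries, and its part in these differences was not tested.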

How the results depend on the processing

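Among the 9 genes, the 2 calls in wild-type quadriceps became 4 with library totals, 6 with no filter, 4 with DESeq2 and 4 with the length and GC trend removed. The 0 in tibialis anterior became 1 with no filter and 2 with DESeq2, and the 0 for the difference between muscles became 1 with library totals and 1 with no filter. The 1 call in the training experiment became 4 with no filter, 4 with DESeq2 and 3 with only the groups compared, and the 0 for the antibody in trained mice became 2 with no filter. With 1 library left out at a time the counts were 1 to 4 in quadriceps, 0 to 0 in tibialis anterior, 1 to 2 between the muscles, 0 to 1 for the difference between muscles, 8 to 11 between genotypes in the acute experiment (10 with all libraries), 8 to 12 between its days (10 with all libraries) and 3 to 3 for its difference. They were 1 to 5 in training, 0 to 0 for its difference, 0 to 0 for the antibody in trained and 0 to 0 in aged mice. The quadriceps count was 1 without sedentary mouse number 5 or 7 or day 7 mouse number 9 or 10, and 4 without day 2 mouse number 13. The count between muscles was 1 without the sedentary libraries named with Mrln, and that for their difference was 1 without quadriceps day 7 mouse number 8 or sedentary tibialis anterior number 7. Ryr1 turned at day 1 against rest with the trend removed, to -1.61 in DTR+ and -0.51 in DTR- mice. The counts above are given without the share of all genes called under each setting, so they say nothing particular to these genes. The causes were not tested.

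With the replicate number as a block, the 2 calls between the muscles became 1, and Mrln (0.67) had an adjusted p of 0.0549. In the acute experiment Sln between genotypes at rest (0.98) had an adjusted p of 0.0593. Same-numbered pairs correlated over 0.1 in 0 of 12 wild-type, 0 of 31 acute and 1 of 18 training pairs. With groups of 2 to 3 libraries this check cannot exclude pairing. In the aged mice same numbers correlated at -0.65 and crossed numbers at 0.65. The 2 libraries of a group deviate from their mean in opposite directions by construction, so these values cannot decide on pairing. A block by crossed numbers in the aged mice, added after seeing the data, gave 0 calls.

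Of 4725 alternatives of single values, 41 lost a call, 58 gained one, 2 turned a called direction and 181 changed sign with neither value past the threshold. Of 198 group levels, 33 moved by over 1 SD with TMM-scaled CPM and 68 with mitochondrial genes left out of the total. Depth limits Pln (at most 16 counts) and Sln.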
